A study of Mus musculus with 24 samples.

Results

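The genes that break down the branched-chain amino acids were examined in fasted mouse liver. The 10 genes, Bckdha, Bckdhb, Dbt, Dld, Bckdk, Bcat2, Ivd, Mccc1, Mccc2 and Hibch, were chosen by name, and all 10 were found among the 35275 genes of the count table. Liver RNA of male C57BL/6 mice, 8 to 10 weeks old and fasted for 24 h, was sequenced as single reads of 75 bases in 24 libraries, 4 from each of 6 genotypes. Control mice carried floxed alleles of both Tsc1 and Cpt2 without Cre, although their labels call them wild type. Tsc1L-/- mice lacked Tsc1, an inhibitor of mTORC1, in the liver, and Cpt2L-/- mice lacked Cpt2, the carnitine palmitoyltransferase needed for mitochondrial oxidation of long-chain fatty acids. DKO mice lacked both, in each case through Cre expressed from the albumin promoter, so that non-parenchymal cells keep the floxed genes. The other 8 libraries are from mice labelled as knockouts of Ppara, the nuclear receptor that drives the fasting response of fatty acid oxidation genes, with Cpt2 intact (Ppara KO) or also lost from the liver (Cpt2L-/- Ppara KO). The paper does not describe these 8 libraries. The labels do not say whether replicates shared a litter or a day of extraction.

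Leucine, isoleucine and valine first lose their amino group to a transaminase, of which Bcat2 encodes the mitochondrial form. The branched-chain keto acids are then committed to oxidation by a mitochondrial dehydrogenase complex made of E1 (Bckdha and Bckdhb), the lipoyl-bearing core E2 (Dbt) and E3 (Dld), and the kinase Bckdk switches this complex off by phosphorylating E1. Downstream, leucine carbon passes through isovaleryl-CoA dehydrogenase (Ivd) and 3-methylcrotonyl-CoA carboxylase (Mccc1 and Mccc2), and valine carbon passes through 3-hydroxyisobutyryl-CoA hydrolase (Hibch). Liver is known for high dehydrogenase activity and low transaminase activity.

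Total counts were 14470968 to 20371204 per library. Tsc1 was lower in the Tsc1-deleted groups, at 15.5 to 28.6 CPM, counts scaled to library size, against 36.8 to 39.9 in control livers and 37.9 to 53.5 in the other libraries with Tsc1 intact, except 1 that is described below. Cpt2 transcripts were at 80.3 to 105 CPM in Cpt2L-/- and 87.8 to 104 in control livers, so they do not check that label. Ppara was at 13.03 to 91.9 CPM in the Ppara-null groups against 213 to 276 in control livers. A pair of libraries stood apart. Cpt2L-/- Ppara KO replicate 1 had 126 CPM of Cpt2 where the other 3 of its group had 31.7 to 39.1. It had 24.3 CPM of Tsc1, inside the range of the Tsc1-deleted groups, where the other 3 had 42.4 to 50.6, and 91.9 CPM of Ppara where they had 26.2 to 46.2. It lay farther from them over all genes than they did from each other. Ppara KO replicate 1 had 96.1 CPM of Cpt2 where the other 3 had 37.96 to 50.9. It was nearest over all genes to Cpt2L-/- Ppara KO replicate 4, and that library was nearest to it, rather than to a library of their own groups. Ppara KO replicate 4 had the largest mean distance of its group to the other 3, at 108.8, and replicate 1, at 98.8, was below replicate 2, at 99.02. Ppara was at 45.2 CPM in Ppara KO replicate 1 and 38.1 in replicate 4, against 13.03 in replicate 2 and 13.05 in replicate 3. The choice of Ppara KO replicate 1 and not replicate 4 for the pair was made after seeing the data. The 2 replicates numbered 1 are the pair left out together below, and each library was also left out alone. The summed level of 6 hepatocyte markers was 61514 to 81711 CPM in control, 40398 to 65890.1 in Tsc1L-/-, 36385 to 58754 in Cpt2L-/- and 27822 to 35586 in DKO livers. In Cpt2L-/- against control livers 2 of the 6 were called lower, as were 3 of 6 stellate cell and 1 of 5 cholangiocyte markers, and 1 of 6 Kupffer cell and 1 of 5 endothelial markers were higher. In DKO against control livers 2 of 6 hepatocyte, 6 of 6 stellate cell, 4 of 6 Kupffer cell, 3 of 5 endothelial and 1 of 5 cholangiocyte markers were lower, and 1 Kupffer cell marker was higher. Against Tsc1L-/- livers, DKO livers had 3 hepatocyte, 4 Kupffer cell, 1 stellate cell, 1 endothelial and 1 cholangiocyte marker lower and 1 Kupffer cell marker higher. Against Cpt2L-/- livers, DKO livers had 4 Kupffer cell, 2 hepatocyte, 2 endothelial and 1 stellate cell marker lower and 1 Kupffer cell, 1 hepatocyte and 1 cholangiocyte marker higher. When Cpt2L-/- Ppara KO livers were compared with Ppara KO livers, 3 Kupffer cell, 1 endothelial and 1 stellate cell marker were higher, and 2 endothelial and 1 cholangiocyte marker were lower. Against Cpt2L-/- livers, those livers had 2 of 3 erythroid, 2 Kupffer cell and 1 hepatocyte marker higher. In Ppara KO against control livers 0 of 6 hepatocyte markers were called, and 2 stellate cell, 1 Kupffer cell and 1 lymphocyte marker were lower and 1 Kupffer cell, 1 endothelial and 1 cholangiocyte marker higher. The hepatocyte sum was 58134 to 83688 CPM in Ppara KO and 43244 to 60876 in Cpt2L-/- Ppara KO livers. Lymphocyte markers summed to at most 7.40 CPM in any library, and the muscle and pancreas enzyme genes Ckm and Prss2 were each under 1 CPM on average in every group. The part of these cell type differences in the results that follow was not tested, and in whole liver fewer cells of a type and less RNA per cell cannot be told apart.

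The sequence before the transcription start was read from the RefSeq annotation of GRCm38.p6, which gave 11 promoters for 9 of the 10 genes. Dbt had no entry. Each 300-base promoter, 250 bases before to 50 bases after the start, was searched on both strands for AGGTCA, the short site bound by many nuclear receptors, for a pair of AGGTCA repeats with 1 base between them, the form bound by Ppara with its partner Rxr, for TGATGNAA, bound by Atf4, and for CACGTG, bound by bHLH factors. Over 32851 mouse promoters of this length, 16.3% held AGGTCA, 0.0396% the pair, 3.97% TGATGNAA and 7.15% CACGTG. In the 11 promoters 2 matches were found. Bckdhb, from chr9:83924887-83925136 on the plus strand, held AGGTCA 119 to 114 bases before the start. Mccc2, from chr13:100015640-100015889 on the minus strand, held CACGTG 9 to 4 bases before the start. They are shown with Mccc1, from chr3:36000679-36000928 on the minus strand, because Mccc1 and Mccc2 encode the subunits of one enzyme and their levels differed between genotypes in different ways. Each run reads 5′ to 3′ along the gene, ends at the base before the start, and has the matched motif in capitals.
Bckdhb: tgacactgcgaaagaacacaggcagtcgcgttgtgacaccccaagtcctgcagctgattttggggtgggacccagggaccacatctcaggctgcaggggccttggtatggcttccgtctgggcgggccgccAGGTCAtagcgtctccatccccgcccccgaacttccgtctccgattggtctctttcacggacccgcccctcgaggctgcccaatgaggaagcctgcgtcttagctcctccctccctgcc
Mccc1: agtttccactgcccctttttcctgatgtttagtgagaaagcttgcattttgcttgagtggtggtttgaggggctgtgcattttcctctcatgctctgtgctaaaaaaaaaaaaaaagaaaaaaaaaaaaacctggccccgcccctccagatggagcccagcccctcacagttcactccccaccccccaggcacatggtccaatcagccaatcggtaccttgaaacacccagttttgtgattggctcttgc
Mccc2: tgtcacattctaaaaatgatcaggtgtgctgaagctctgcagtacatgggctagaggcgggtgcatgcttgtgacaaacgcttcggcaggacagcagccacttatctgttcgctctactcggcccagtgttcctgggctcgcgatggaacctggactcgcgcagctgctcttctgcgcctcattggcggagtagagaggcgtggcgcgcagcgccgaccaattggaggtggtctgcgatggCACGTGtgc
GC content was 63.2% for the Bckdhb run shown, 48.4% for Mccc1 and 58.8% for Mccc2, against a median of 52.4% over all promoters. The other promoter listed for Bckdhb held no match and had a GC content of 36.4%. CpG pairs numbered 2 in the Mccc1 run and 18 in the Mccc2 run. A match or its absence describes these letters in this window only.

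Levels of different genes were compared in FPKM, the count divided by gene length and by library total, here on the control livers with SD and n = 4. Bckdha was the highest at 152 ± 14.7 FPKM. Dld at 58.1 ± 4.61, Ivd at 55.6 ± 11.7 and Bckdhb at 53.7 ± 7.84 followed and did not differ beyond their spread. Mccc2 was at 31.1 ± 1.33 and Dbt at 27.5 ± 3.74, and the libraries of these neighbours overlapped. Hibch at 18.1 ± 1.08 and Bcat2 at 16.2 ± 3.14 overlapped as well. Mccc1 at 5.84 ± 0.760 and Bckdk at 4.53 ± 1.05 were the lowest and overlapped. In FPKM the E1 transcripts were above the E2 transcript, and the carboxylase subunit Mccc2 above its partner Mccc1, in each of the 4 control livers. This order depends on the gene lengths used, such as 6751 bases for Mccc1, 2123 for Mccc2, 3296 for Dbt and 1477 for Bckdhb. In CPM, which leaves length out, Bckdhb averaged 82.2 and Dbt 93.9 in control livers. Mccc2 averaged 68.8 CPM there, Mccc1 40.8, Bcat2 34.9 and Bckdk 13.3.

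**Figure D1:**
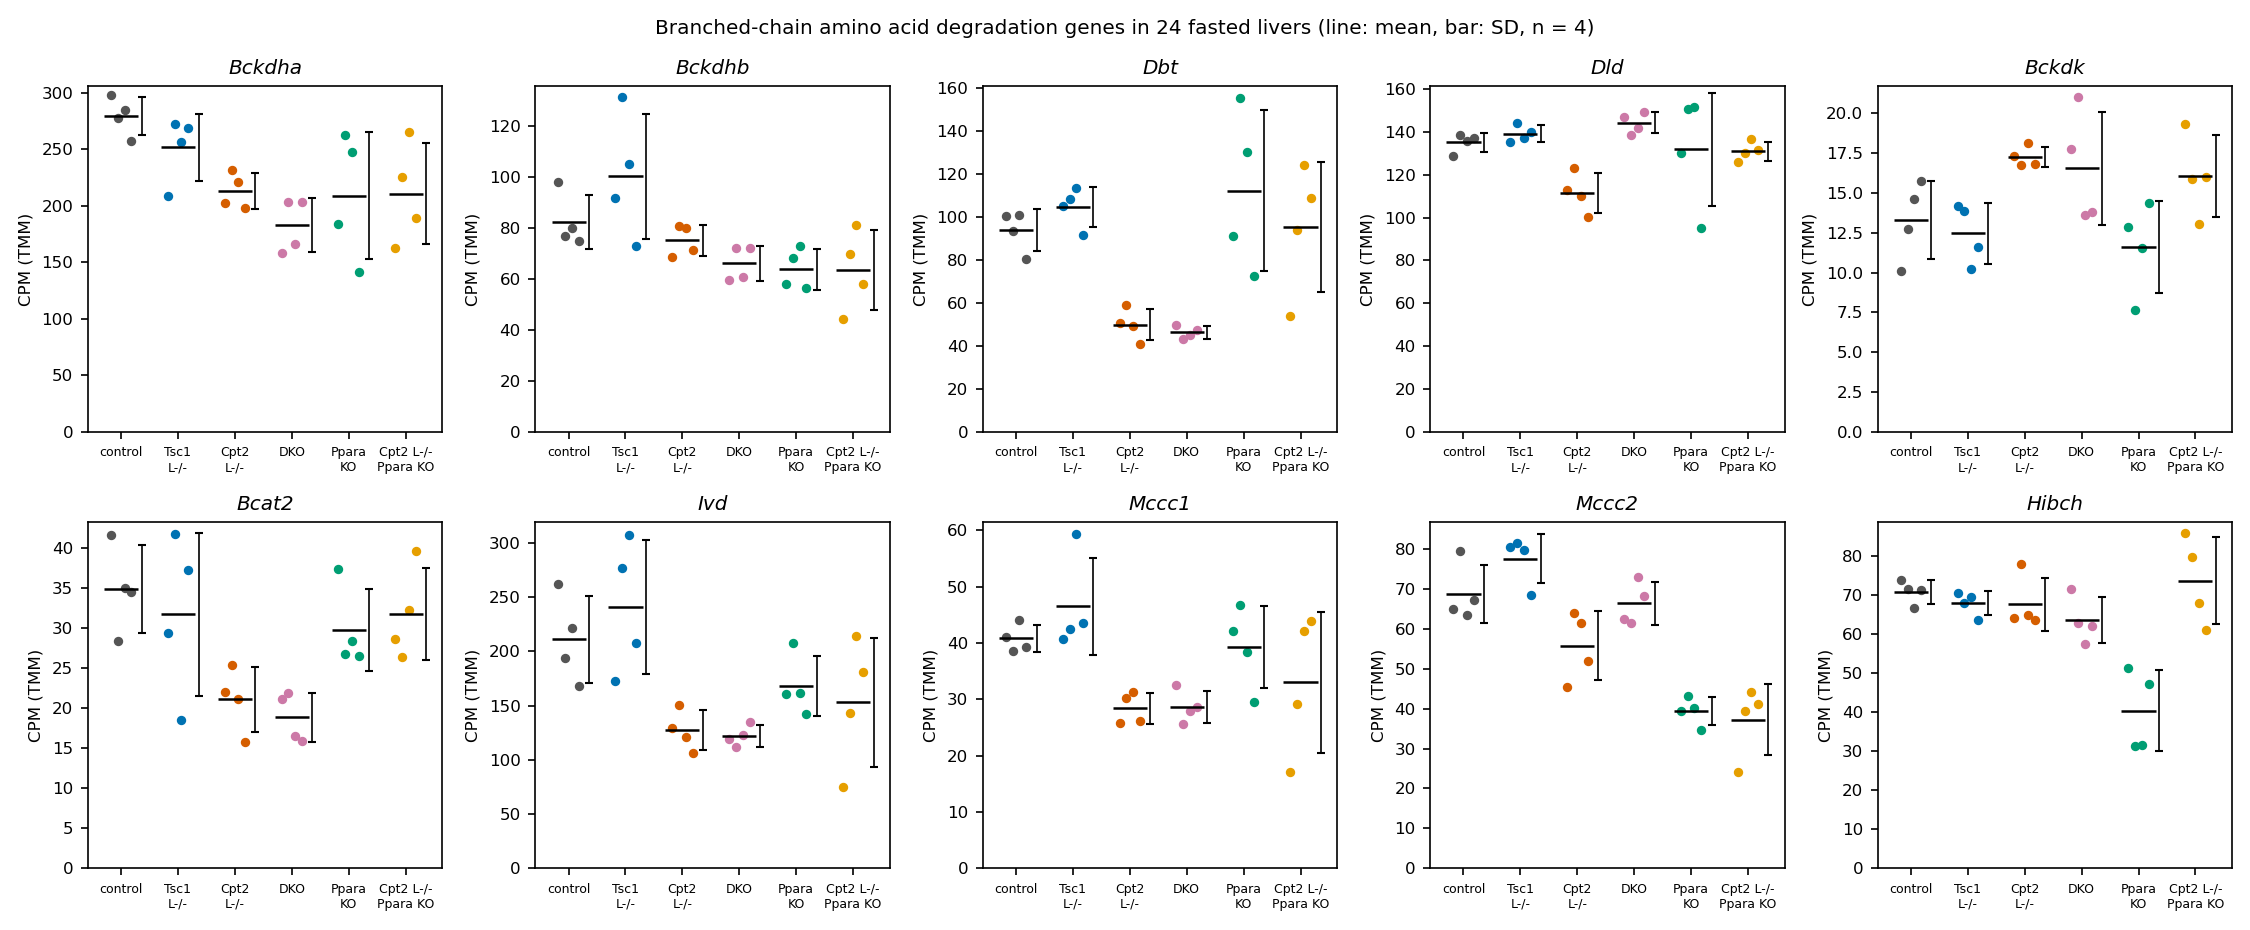
Level of each of the 10 genes in 24 livers, in CPM after TMM scaling (vertical axis, from 0), by genotype (horizontal axis). Each point is 1 library in replicate order, the line is the mean and the bar is ± 1 SD (n = 4). Dbt was at 40.9 to 58.8 CPM in the 8 Cpt2L-/- and DKO livers and at 80.4 to 113 CPM in the 8 control and Tsc1L-/- livers.

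The first question was how the pathway responds when fasted hepatocytes cannot oxidize long-chain fatty acids. In Cpt2L-/- against control livers, 7 of the 10 genes fell (edgeR adjusted p under 0.05), none was called higher, while 14.9% of the 13641 genes tested fell and 16.2% rose. The median log2 fold change of the 10 genes was -0.37, against -0.02 over all genes tested. Among the 10 genes the falls were in Bcat2, whose reads may include those of an overlapping gene, in the dehydrogenase complex and in the leucine branch. The valine branch is held here by Hibch alone, which was not called. Its other steps are in the list of further genes below, where 11 of 14 fell. The count was 4 with limma on log2 FPKM, 3 when all 24 libraries entered one fit and 4 without control replicate 1, with Dbt and Ivd called in every alternative run.

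Within the dehydrogenase complex, Dbt (chr3:116513070-116549976, plus strand, GRCm38), the E2 core, changed most. It was at 101, 93.5, 101 and 80.4 CPM in control livers. In Cpt2L-/- livers it was at 50.8, 58.8, 49.03 and 40.9 CPM. Each Cpt2L-/- liver was below each control liver, which held for 6 of the 10 genes and for 13.8% of all genes (log2 fold change -0.94, standard error 0.12, edgeR adjusted p = 1.6e-05). Bckdha (chr7:25629852-25658761, minus strand), the E1 alpha subunit, was at 298, 278, 285 and 257 CPM in control livers and at 202, 232, 221 and 198 in Cpt2L-/- livers. The groups did not overlap (log2 fold change -0.42, standard error 0.12, edgeR adjusted p = 0.0128). Bckdhb (chr9:83925145-84124240, plus strand), the E1 beta subunit, was at 97.8, 76.8, 79.7 and 74.7 CPM in control and 68.5, 80.6, 79.9 and 71.4 in Cpt2L-/- livers. Its groups overlapped, and the estimate on the log2 scale was -0.16 (standard error 0.15, edgeR adjusted p = 0.449), with a 95% interval of -0.47 to 0.15. Dld (chr12:31331564-31351437, minus strand), the E3 subunit that also serves the pyruvate and 2-oxoglutarate dehydrogenases and the glycine cleavage system, was at 129, 139, 136 and 137 CPM in control and 113, 123, 110.2 and 100.5 in Cpt2L-/- livers. It was lower in each of the 4 Cpt2L-/- livers by a small amount (log2 fold change -0.30, standard error 0.09, edgeR adjusted p = 0.0157). The call for Dld was lost in 9 of 16 alternatives, among them leaving out control replicate 2, 3 or 4 or Cpt2L-/- replicate 3 or 4 (edgeR adjusted p of 0.0549 to 0.0685). The call for Bckdha was lost in 4 of 16 alternatives, which were leaving out control replicate 1 (edgeR adjusted p = 0.0624), limma at either pseudocount (adjusted p = 0.0785 and 0.0798) and all 24 libraries in one fit (edgeR adjusted p = 0.116).

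Bckdk (chr7:127904082-127909664, plus strand), the kinase that inhibits the complex, lay on the other side of 0. It was at 10.1, 12.8, 14.6 and 15.7 CPM in control livers and at 17.3, 16.7, 18.1 and 16.8 in Cpt2L-/- livers. Each Cpt2L-/- liver was above each control liver, as for 17.1% of all genes, and the test did not call it (log2 fold change 0.35, standard error 0.16, edgeR adjusted p = 0.109).

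Bcat2 (chr7:45570153-45589710, plus strand), the mitochondrial transaminase, was at 41.7, 28.4, 34.98 and 34.5 CPM in control and 22.05, 25.4, 21.2 and 15.7 in Cpt2L-/- livers. The groups did not overlap (log2 fold change -0.75, standard error 0.21, edgeR adjusted p = 0.0113), and the call was lost by a small margin without control replicate 1 (edgeR adjusted p = 0.0521). A transcript on the opposite strand, 0610005C13Rik, overlaps Bcat2 and fell by a like amount (log2 fold change -0.76, edgeR adjusted p = 0.00288). The strand setting of the counting is not stated, so reads of these genes cannot be told apart here.

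In the leucine branch, Ivd (chr2:118861954-118882909, plus strand) was at 262, 194, 222 and 168 CPM in control and 129.8, 151, 121 and 107 in Cpt2L-/- livers, without overlap (log2 fold change -0.76, standard error 0.17, edgeR adjusted p = 0.00286). Mccc1 (chr3:35959312-36000678, minus strand), the biotin-carrying alpha subunit of the carboxylase, was at 41.1, 38.6, 44.1 and 39.3 CPM in control and 25.8, 30.2, 31.3 and 26.1 in Cpt2L-/- livers, again without overlap (log2 fold change -0.55, standard error 0.12, edgeR adjusted p = 0.00257), and its call was lost with all 24 libraries in one fit (edgeR adjusted p = 0.0673). Mccc2 (chr13:99948533-100015639, minus strand), the beta subunit, was at 65.02, 79.4, 63.5 and 67.2 CPM in control and 45.3, 64.1, 61.5 and 52.1 in Cpt2L-/- livers. The Mccc2 groups overlapped, its call (log2 fold change -0.33, standard error 0.12, edgeR adjusted p = 0.0402) was lost in 12 of 16 alternatives, and the loss occurred without any one of the control livers and without Cpt2L-/- replicate 1, 3 or 4 (edgeR adjusted p of 0.0535 to 0.194). In the valine branch, Hibch (chr1:52844929-52920986, plus strand) was at 73.8, 71.5, 66.5 and 71.1 CPM in control and 63.9, 77.8, 64.7 and 63.5 in Cpt2L-/- livers. These overlapped, at -0.09 (standard error 0.10, edgeR adjusted p = 0.496) on the log2 scale and a 95% interval of -0.30 to 0.11.

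The same loss of Cpt2 was compared on livers that already lacked Tsc1, with 8 other libraries. In DKO against Tsc1L-/- livers 6 of the 10 genes fell, none was called higher, while 15.2% of all genes tested fell and 16.9% rose. Dbt was at 105, 109, 113 and 91.3 CPM in Tsc1L-/- and 49.9, 43.1, 44.9 and 47.2 in DKO livers, so that the lowest Tsc1L-/- liver was above each DKO liver, as for 5 of the 10 genes and 13.4% of all genes (log2 fold change -1.18, standard error 0.12, edgeR adjusted p = 1.93e-06). Ivd was at 173, 277, 307 and 208 CPM in Tsc1L-/- and 119, 111, 123 and 135 in DKO livers, with no overlap (log2 fold change -0.99, standard error 0.18, edgeR adjusted p = 0.000331). Mccc1 was at 40.8, 42.4, 59.3 and 43.6 CPM in Tsc1L-/- and 32.5, 25.7, 27.8 and 28.7 in DKO livers, also without overlap (log2 fold change -0.70, standard error 0.12, edgeR adjusted p = 0.000336). Bckdha fell by a similar amount as in the first comparison (log2 fold change -0.47, standard error 0.12, edgeR adjusted p = 0.00596), a call lost with all 24 libraries in one fit (edgeR adjusted p = 0.0645). Bcat2 fell as well (log2 fold change -0.76, standard error 0.21, edgeR adjusted p = 0.0107), whose opposite-strand neighbour fell too (log2 fold change -0.68, edgeR adjusted p = 0.00637). Bckdhb was at 91.7, 131, 105 and 72.8 CPM in Tsc1L-/- livers and between 59.5 and 72.03 CPM in the DKO livers, all below the lowest Tsc1L-/- liver, and it was called here (log2 fold change -0.61, standard error 0.15, edgeR adjusted p = 0.0043). Dld was not called (log2 fold change 0.04, standard error 0.09, edgeR adjusted p = 0.745), and Bckdk was above 0 without a call (log2 fold change 0.40, standard error 0.16, edgeR adjusted p = 0.0668). The log2 fold changes of Mccc2 and Hibch were -0.23 (standard error 0.12, edgeR adjusted p = 0.142) and -0.10 (standard error 0.10, edgeR adjusted p = 0.444).

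**Figure D2:**
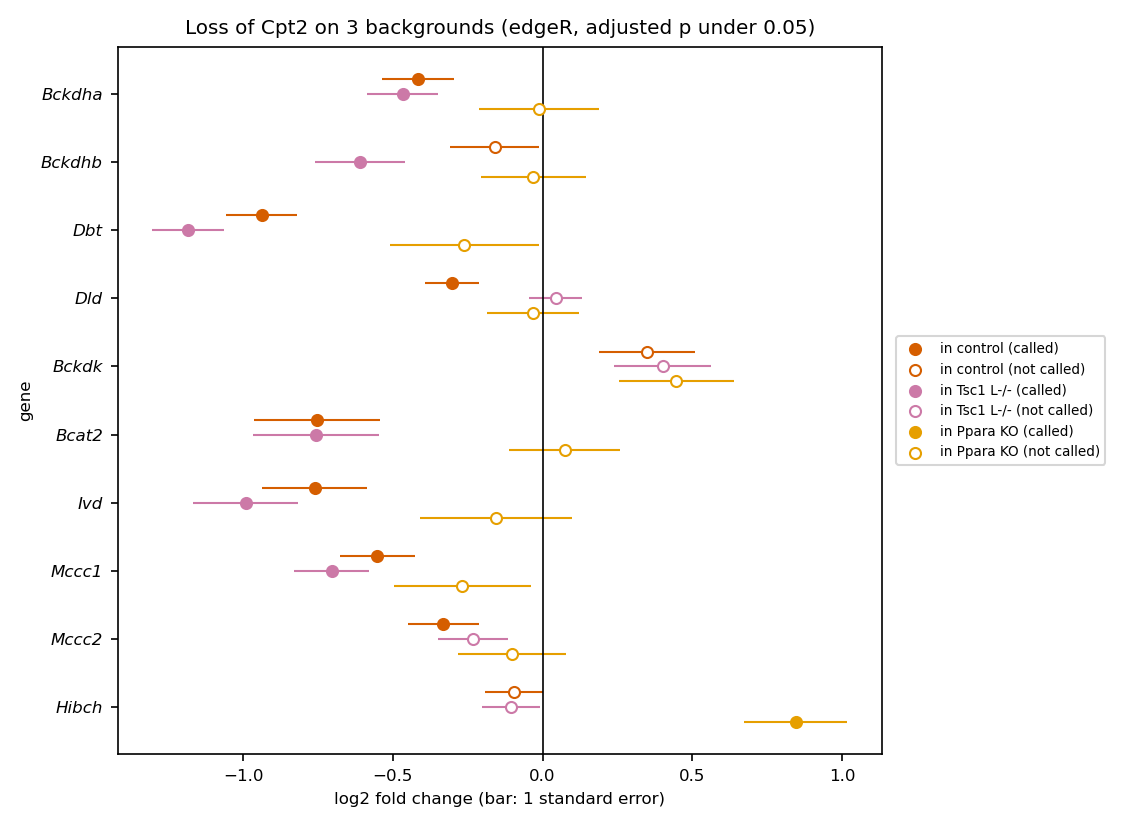
Log2 fold change of the 10 genes (rows) after loss of Cpt2 in control, Tsc1L-/- and Ppara KO livers, from 3 comparisons that share no library. Points are edgeR estimates, filled where the adjusted p is under 0.05, and bars are 1 standard error. Dbt, Ivd, Mccc1, Bcat2 and Bckdha are filled on the negative side in the first pair of comparisons and open in Ppara KO livers, where Hibch is filled at 0.84. The standard error of Dbt was 0.12 in each of the first pair and 0.25 in Ppara KO livers. Filled against open is therefore not a test of a difference. Of the genes filled on the negative side, only Bcat2 had a called interaction of Cpt2 and Ppara.

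Measured against control, DKO livers had 5 of the 10 genes lower and none called higher, while 17.1% of all genes tested were lower and 19.3% higher. These were Dbt (-1.03), Bcat2 (-0.90), Ivd (-0.80), Bckdha (-0.62) and Mccc1 (-0.52), as log2 fold changes with edgeR adjusted p-values of 4.38e-06, 0.00319, 0.00168, 0.000616 and 0.00356. The call for Mccc1 was lost with limma at either pseudocount (adjusted p = 0.0817 and 0.0869) and with all 24 libraries in one fit (edgeR adjusted p = 0.0637). This comparison shares the control libraries with the first one. Bckdhb did not overlap between DKO and control livers, as for 16.3% of all genes in the lower direction, and was not called (log2 fold change -0.33, standard error 0.15, edgeR adjusted p = 0.0932). Bckdk was at 17.7, 21.1, 13.6 and 13.8 CPM in DKO livers, which overlapped the control livers (log2 fold change 0.31, standard error 0.16, edgeR adjusted p = 0.146).

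The question for Tsc1 was whether active mTORC1 changes these genes in the fasted liver. In Tsc1L-/- against control livers edgeR called 0 of the 10 genes, with 6.64% of all genes tested called in either direction. None had an unadjusted p under 0.05, and DESeq2 and limma on log2 FPKM also called 0. The log2 fold changes ranged from -0.15 for Bckdha to 0.28 for Bckdhb, and the 95% intervals were -0.09 to 0.40 for Dbt, -0.18 to 0.55 for Ivd and -0.03 to 0.59 for Bckdhb. Added to the loss of Cpt2, the loss of Tsc1 raised 1 of the 10 genes and lowered none. These counts were near the shares of all genes tested, of which 10.9% were higher and 7.4% lower in DKO than in Cpt2L-/- livers. The gene raised was Dld. It was at 113, 123, 110.2 and 100.5 CPM in Cpt2L-/- livers and at 147, 139, 142 and 149.5 CPM in DKO livers, and the groups did not overlap, as for 12.9% of all genes in this direction (log2 fold change 0.39, standard error 0.09, edgeR adjusted p = 0.00682). In the same comparison 4 of 6 Kupffer cell and 2 of 6 hepatocyte markers were lower and 1 of each was higher, and their part in the result was not tested. The Dld call was lost with all 24 libraries in one fit (edgeR adjusted p = 0.0912). DKO livers thus had Dld near its control level (log2 fold change 0.08, standard error 0.09, edgeR adjusted p = 0.486) while the E2 partner Dbt was at -1.03. Mccc2 had an unadjusted p under 0.05 but was not called (log2 fold change 0.27, standard error 0.12, edgeR adjusted p = 0.118).

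Whether the effect of Cpt2 loss differs with Tsc1 was tested by the interaction of the 2 deletions. The edgeR test called 0 of the 10 genes, with 2.38% of all genes called, and DESeq2 and limma also called 0. At an unadjusted p under 0.05 there were 2 genes, Dld at 0.35 (standard error 0.13, edgeR adjusted p = 0.149) and Bckdhb at -0.45 (standard error 0.21, edgeR adjusted p = 0.255). The call of Bckdhb on one background and not on the other is therefore not shown to be a difference between them.

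**Figure D3:**
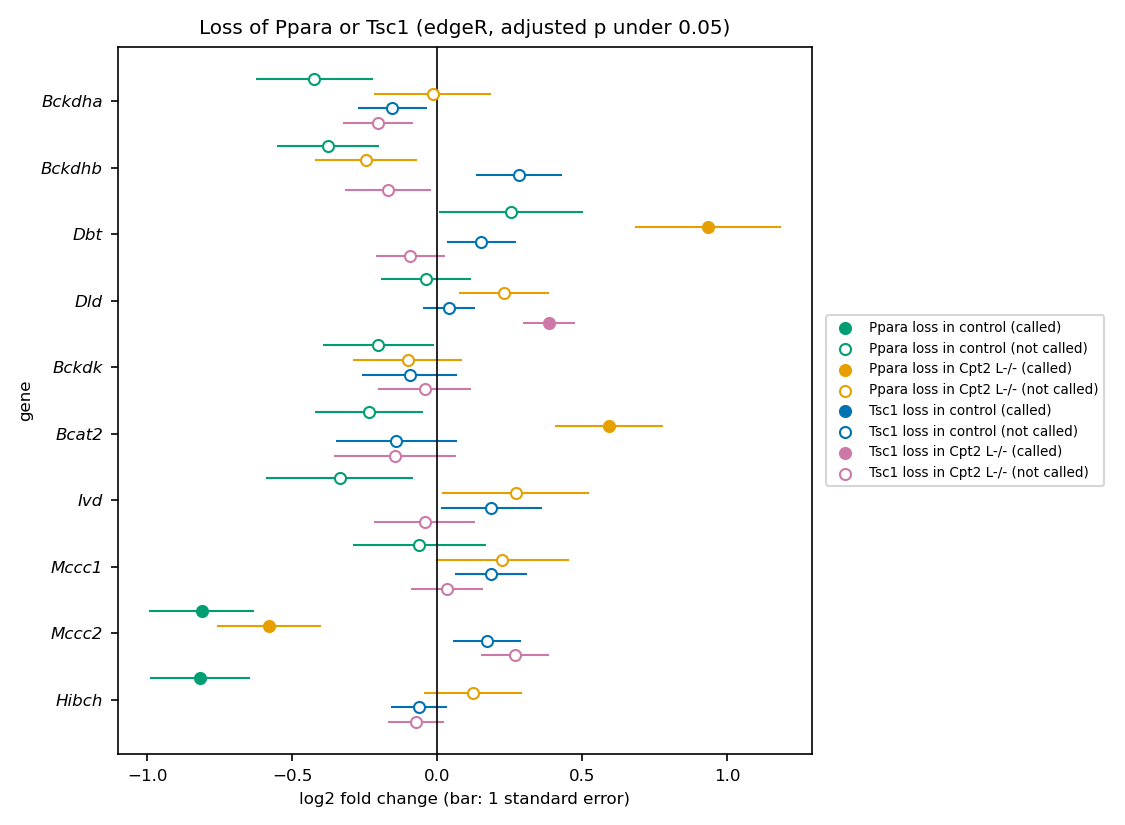
Log2 fold change of the 10 genes (rows) after loss of Ppara or of Tsc1, each in control and in Cpt2L-/- livers. Points are edgeR estimates, filled where the adjusted p is under 0.05, and bars are 1 standard error. Mccc2 is filled on the negative side after Ppara loss on both backgrounds, and Dld is the one gene filled after Tsc1 loss, at 0.39 in Cpt2L-/- livers.

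The part of Ppara in the level of these genes was examined in the libraries without it. Neither the labels nor the paper say whether those mice shared a colony or cohort with the control mice. A difference by Ppara genotype can therefore not be told apart from one by cohort. In Ppara KO against control livers 2 of the 10 genes fell, Mccc2 and Hibch, a count not far from the 13.2% of the 13615 genes tested that fell. None was called higher, where 15.9% of all genes rose. Hibch, the valine branch hydrolase, was at 73.8, 71.5, 66.5 and 71.1 CPM in control livers and at 51.2, 31.4, 31.5 and 47.2 in Ppara KO livers. Each Ppara KO liver was below each control liver, which held for 3 of the 10 genes and for 14.7% of all genes (log2 fold change -0.82, standard error 0.17, edgeR adjusted p = 0.00205). Mccc2 was at 65.02, 79.4, 63.5 and 67.2 CPM in control and 39.4, 43.2, 40.1 and 34.6 in Ppara KO livers, without overlap (log2 fold change -0.81, standard error 0.18, edgeR adjusted p = 0.00302). Its partner Mccc1 was at 42.1, 46.8, 38.5 and 29.5 CPM in Ppara KO livers, which overlapped the control livers (log2 fold change -0.06, standard error 0.23, edgeR adjusted p = 0.87). Both falls were called in all alternatives run, and without the pair of libraries that stood apart the values were -0.95 for Hibch (edgeR adjusted p = 0.000324) and -0.81 for Mccc2 (edgeR adjusted p = 0.000751). Dbt was at 91.1, 155, 130.1 and 72.6 CPM in Ppara KO livers, on both sides of the control range (log2 fold change 0.25, standard error 0.25, edgeR adjusted p = 0.47). Bckdha (log2 fold change -0.42, standard error 0.20, edgeR adjusted p = 0.123) and Bckdhb (log2 fold change -0.38, standard error 0.18, edgeR adjusted p = 0.116) were below 0 without a call.

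Loss of Ppara was then compared on livers that lacked Cpt2. In Cpt2L-/- Ppara KO against Cpt2L-/- livers 2 of the 10 genes rose, Dbt and Bcat2, with 10.3% of all genes tested higher, and 1 fell, Mccc2, with 8.01% lower. Dbt was at 50.8, 58.8, 49.03 and 40.9 CPM in Cpt2L-/- and 54.01, 93.7, 124 and 109 in Cpt2L-/- Ppara KO livers. Replicate 1, the library that stood apart, lay within the Cpt2L-/- range and the other 3 lay above it (log2 fold change 0.93, standard error 0.25, edgeR adjusted p = 0.0179). Without the pair that stood apart the value was 1.13 (edgeR adjusted p = 0.00216), and without Cpt2L-/- replicate 3 or 4 the call was lost (edgeR adjusted p = 0.054 and 0.0657). Bcat2 was at 28.7, 26.4, 32.3 and 39.7 CPM in Cpt2L-/- Ppara KO livers, just above the Cpt2L-/- range, as for 11.4% of all genes (log2 fold change 0.59, standard error 0.19, edgeR adjusted p = 0.0364). This call was lost in 9 of 17 alternatives, including those without Cpt2L-/- replicate 1, 3 or 4 and without Cpt2L-/- Ppara KO replicate 3 or 4 (edgeR adjusted p of 0.0589 to 0.125), it was 0.64 (edgeR adjusted p = 0.0272) without the pair that stood apart, and 0610005C13Rik was not called (log2 fold change 0.33, edgeR adjusted p = 0.274). Mccc2 was at 24.2, 39.4, 44.05 and 41.1 CPM in Cpt2L-/- Ppara KO livers, just below the Cpt2L-/- range, as for 11% of all genes (log2 fold change -0.58, standard error 0.18, edgeR adjusted p = 0.0344). Its call was lost in 8 of 17 alternatives, including those without Cpt2L-/- replicate 2, 3 or 4 and without Cpt2L-/- Ppara KO replicate 1 or 2 (edgeR adjusted p of 0.0594 to 0.101), and it was -0.42 without the pair that stood apart (edgeR adjusted p = 0.0737). Hibch was not called on this background (log2 fold change 0.12, standard error 0.17, edgeR adjusted p = 0.643).

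The third comparison of Cpt2 loss, in livers without Ppara, used the 8 libraries of the Ppara-null groups. In Cpt2L-/- Ppara KO against Ppara KO livers edgeR called 0 of the 10 genes lower, where 12.6% of all genes tested fell. None was below 0 with an unadjusted p under 0.05, and DESeq2 and limma also called 0 lower. It called 1 higher, near the share of 12.9% of all genes that were higher. Hibch was at 51.2, 31.4, 31.5 and 47.2 CPM in Ppara KO and 85.7, 79.5, 67.95 and 60.97 in Cpt2L-/- Ppara KO livers, so that the latter were all above the former, as for 9.44% of all genes, and on both sides of the control range (log2 fold change 0.84, standard error 0.17, edgeR adjusted p = 0.00545). In a fit of these 8 libraries alone the Hibch call was lost (edgeR adjusted p = 0.0674), and without the pair that stood apart it was 0.90 (edgeR adjusted p = 0.00296). On the log2 scale Dbt differed by -0.26 (standard error 0.25, edgeR adjusted p = 0.459), with a 95% interval of -0.79 to 0.26, Ivd by -0.16 (standard error 0.25, edgeR adjusted p = 0.68), with -0.69 to 0.38, and Bckdha by -0.01 (standard error 0.20, edgeR adjusted p = 0.971), with -0.43 to 0.41. Without the pair that stood apart Dbt was at -0.16 (edgeR adjusted p = 0.663), and Ivd at 0.05 (edgeR adjusted p = 0.898) and Bckdha at 0.04 (edgeR adjusted p = 0.924) lay on the other side of 0, as did Bckdhb and Mccc2. Replicate 1 of the Cpt2L-/- Ppara KO group was the lowest of the 4 for Ivd, at 75.4 CPM where the others had 143 to 214. The same was true of Mccc1, at 17.02 CPM against 29.1 to 43.8. Bckdk was at 12.9, 7.68, 11.5 and 14.4 CPM in Ppara KO and 19.3, 15.9, 13.1 and 15.99 in Cpt2L-/- Ppara KO livers and was again above 0 without a call (log2 fold change 0.45, standard error 0.19, edgeR adjusted p = 0.0919), at 0.40 (edgeR adjusted p = 0.183) without the pair.

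The difference between the effects of Cpt2 loss with and without Ppara was tested by their interaction, which uses the control and Cpt2L-/- libraries of the first comparison. All 10 estimates were above 0, with a median of 0.35 against 0.03 over all genes, and 2 of the 10 were called, with 12% of all genes called in this direction. Of the cell type markers, 1 Kupffer cell, 1 stellate cell, 1 lymphocyte and 1 muscle or pancreas marker had an interaction called above 0, and 1 endothelial and 1 cholangiocyte marker below 0. Bcat2 had an interaction of 0.83 (standard error 0.26, edgeR adjusted p = 0.0309). Its call was lost in 11 of 24 alternatives, among them those without control replicate 1, without Cpt2L-/- replicate 1, 3 or 4, without Ppara KO replicate 2, 3 or 4 and without Cpt2L-/- Ppara KO replicate 4 (edgeR adjusted p of 0.0523 to 0.0702). Hibch had an interaction of 0.94 (standard error 0.24, edgeR adjusted p = 0.0111), called in all 24. For Dbt the interaction was 0.68 (standard error 0.35, edgeR adjusted p = 0.168) and for Ivd 0.61 (standard error 0.36, edgeR adjusted p = 0.226). Without the pair of libraries that stood apart Ivd was called at 0.81 (edgeR adjusted p = 0.044) and Dbt was at 0.78 (edgeR adjusted p = 0.0675). Without Cpt2L-/- Ppara KO replicate 1 alone 4 of the 10 were called. For Dbt, called in control and not in Ppara KO livers, a difference between the backgrounds was therefore not established in all 16 libraries.

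Because partners in one complex differed in their response, ratios of FPKM values were taken within each library, as a description without a test. The ratio of the kinase Bckdk to the E2 core Dbt was 0.116, 0.158, 0.168 and 0.226 in control livers and 0.395, 0.329, 0.428 and 0.476 in Cpt2L-/- livers. It was 0.417 ± 0.104 in DKO livers (SD, n = 4), so that each liver of these Cpt2-deficient groups was above each control and Tsc1L-/- liver. In Cpt2L-/- Ppara KO livers it was 0.414, 0.196, 0.122 and 0.170, where the high value is replicate 1. Bckdk itself was not called in Cpt2L-/- or DKO livers against control, while Dbt was. The ratio of Bckdk to Bckdha, the E1 alpha subunit, was 0.0211 to 0.0381 in control, 0.0449 to 0.0534 in Cpt2L-/- and 0.0423 to 0.0699 in DKO livers. The highest Tsc1L-/- liver, at 0.0424, lay inside the DKO range. How often ratios of other genes separate these groups was not computed. The ratio of Dld to Dbt was 2.14 ± 0.278 in control, 3.32 ± 0.221 in Cpt2L-/- and 4.59 ± 0.177 in DKO livers (SD, n = 4), and these 3 groups did not overlap. The ratio of Mccc2 to Mccc1 was 5.40 ± 0.840 in control, 7.41 ± 0.934 in DKO and 3.24 ± 0.368 in Ppara KO livers (SD, n = 4). Each Ppara KO liver was below each control liver, and the Cpt2L-/- Ppara KO livers at 3.78 ± 0.745 were below them too. The ratio of the E1 subunits Bckdhb to Bckdha was 0.353 ± 0.0284 in control, 0.481 ± 0.109 in Tsc1L-/-, 0.423 ± 0.0136 in Cpt2L-/- and 0.435 ± 0.0126 in DKO livers (SD, n = 4). The Cpt2L-/- and DKO livers did not overlap the control livers, and the Tsc1L-/- livers lay on both sides of all 3 groups.

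**Figure D4:**
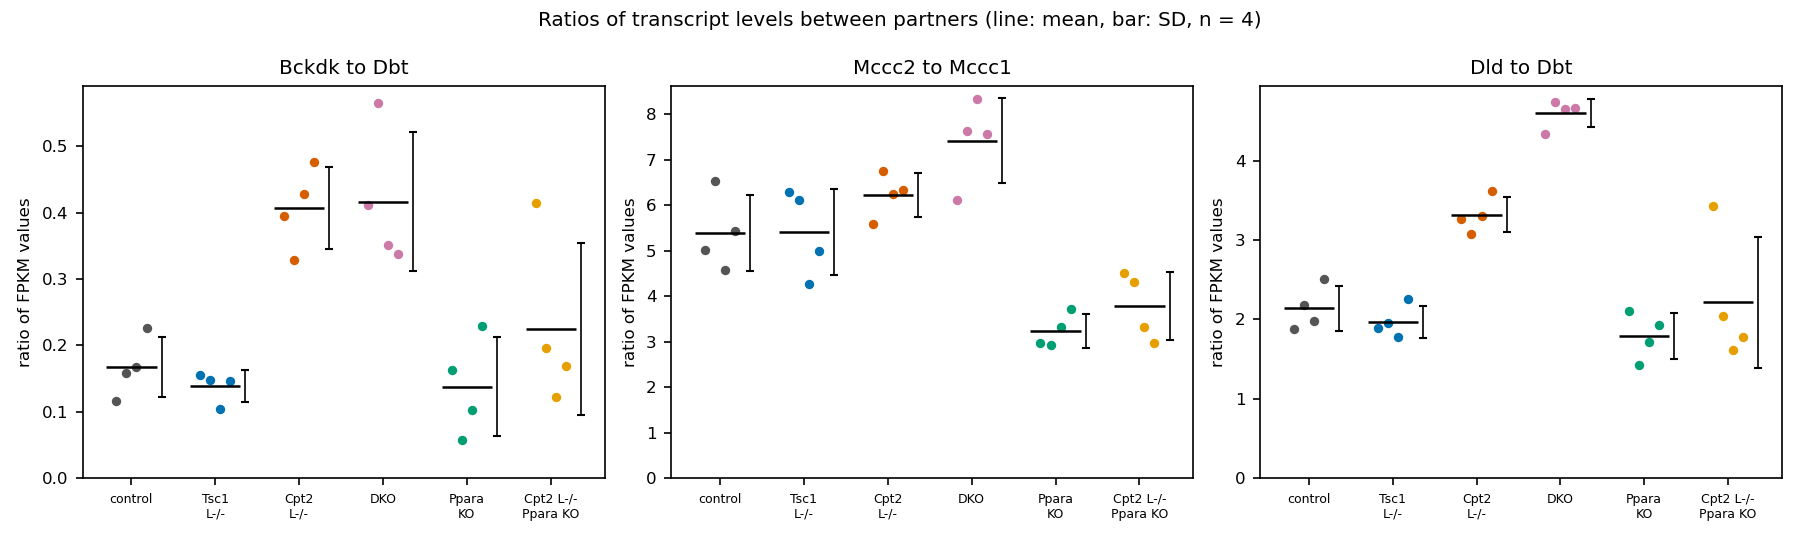
Ratio of FPKM values of Bckdk to Dbt, Mccc2 to Mccc1 and Dld to Dbt (vertical axes, from 0) in each of 24 livers by genotype (horizontal axis). Points are libraries in replicate order, lines are means and bars are ± 1 SD (n = 4). The Bckdk to Dbt ratio was 0.329 to 0.565 in Cpt2L-/- and DKO livers and 0.105 to 0.226 in control and Tsc1L-/- livers.

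Over the 24 libraries, which differ in genotype, the 10 genes did not vary as one. Pearson's r between pairs of genes, on log2 CPM and given without a test, ranged from -0.72 for Bckdk with Dbt to 0.91 for Ivd with Mccc1, with a median of 0.36 over 45 pairs. Bckdk was also at -0.71 with Ivd and -0.70 with Mccc1. Among 12250 other genes, those nearest to the mean profile of the 10 were Ptms (r = 0.91), Atp5sl (0.91), Upb1 (0.91), Upp2 (0.91) and D10Jhu81e (0.90). Upb1 and Upp2 encode enzymes of pyrimidine breakdown. Among the 3 nearest to Dbt were Prodh (0.91), the proline dehydrogenase, and Cth (0.91), the cystathionine gamma-lyase. Nearest to Dld was Pdhb (0.86), a subunit of the pyruvate dehydrogenase complex that Dld also serves. Nearest to Mccc2 was Gcdh (0.91), the glutaryl-CoA dehydrogenase of lysine breakdown, and nearest to Ivd were Sema4g (0.94), Ptms (0.91) and Fah (0.90), the last enzyme of tyrosine breakdown. All 24 libraries entered these values, and group differences make up part of each.

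The other steps of the pathway were taken as a list of 14 genes, from Auh in leucine breakdown to the propionate genes Pcca, Pccb, Mcee, Mut, Mmaa and Mmab, all of which were tested. In Cpt2L-/- against control livers 11 of the 14 fell and none was called higher, with a median log2 fold change of -0.58, where 14.9% of all genes fell. The largest were Mmab, which makes the cobalamin cofactor of methylmalonyl-CoA mutase, at -1.40 (edgeR adjusted p = 0.000936), and Acadsb, the dehydrogenase for isoleucine-derived acyl-CoA, at -0.92 (edgeR adjusted p = 1.17e-05). Not all 11 calls held when single libraries were left out. The call for Mmaa was lost without control replicate 2 or 3 or Cpt2L-/- replicate 1 or 4 (edgeR adjusted p of 0.0574 to 0.0871). That of another gene was lost without any one of the control livers. In DKO against Tsc1L-/- livers 8 fell and none was called higher, where 15.2% of all genes fell, with Acadsb at -0.85 (edgeR adjusted p = 2.2e-05) and the isobutyryl-CoA dehydrogenase gene Acad8 at -0.66 (edgeR adjusted p = 0.000826). Without Tsc1L-/- replicate 3 the count was 5. In Tsc1L-/- against control livers 1 of the 14 fell, where 2.48% of all genes did. It was Acat1, a thiolase shared with ketogenesis, at -0.89 (edgeR adjusted p = 0.00805), and the count was 2 without Tsc1L-/- replicate 2 or 3. In Ppara KO livers 9 of the 14 fell, where 13.2% of all genes did, led by Hsd17b10, a dehydrogenase of isoleucine breakdown, at -2.39 (edgeR adjusted p = 2.36e-05) and Acat1 at -1.96 (edgeR adjusted p = 0.00105). In Cpt2L-/- Ppara KO against Ppara KO livers none fell and 5 rose, where 12.9% of all genes rose. The count was 1 without Cpt2L-/- Ppara KO replicate 1 or Ppara KO replicate 3, and 2 without Ppara KO replicate 2 or 4. The largest was Acat1, which ranged from 81.02 to 222 CPM in Ppara KO livers and from 183 to 670.5 in Cpt2L-/- Ppara KO livers, where the median was 215 (1.13 on the log2 scale, edgeR adjusted p = 0.0335). Acat1 was at 0.48 (edgeR adjusted p = 0.22) without Cpt2L-/- Ppara KO replicate 1 and at 0.76 (edgeR adjusted p = 0.0303) without the pair, and its call was also lost without Ppara KO replicate 2, 3 or 4 (edgeR adjusted p of 0.0655 to 0.0947). The interaction of Cpt2 and Ppara was called above 0 for 9 of the 14, where 12% of all genes were, with a median of 0.97, and for 6 to 11 when each library was left out. Without the pair of libraries that stood apart, 11 of the 14 fell in Ppara KO livers, 5 rose in Cpt2L-/- Ppara KO against Ppara KO livers and 11 interactions were called above 0.

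**Figure D5:**
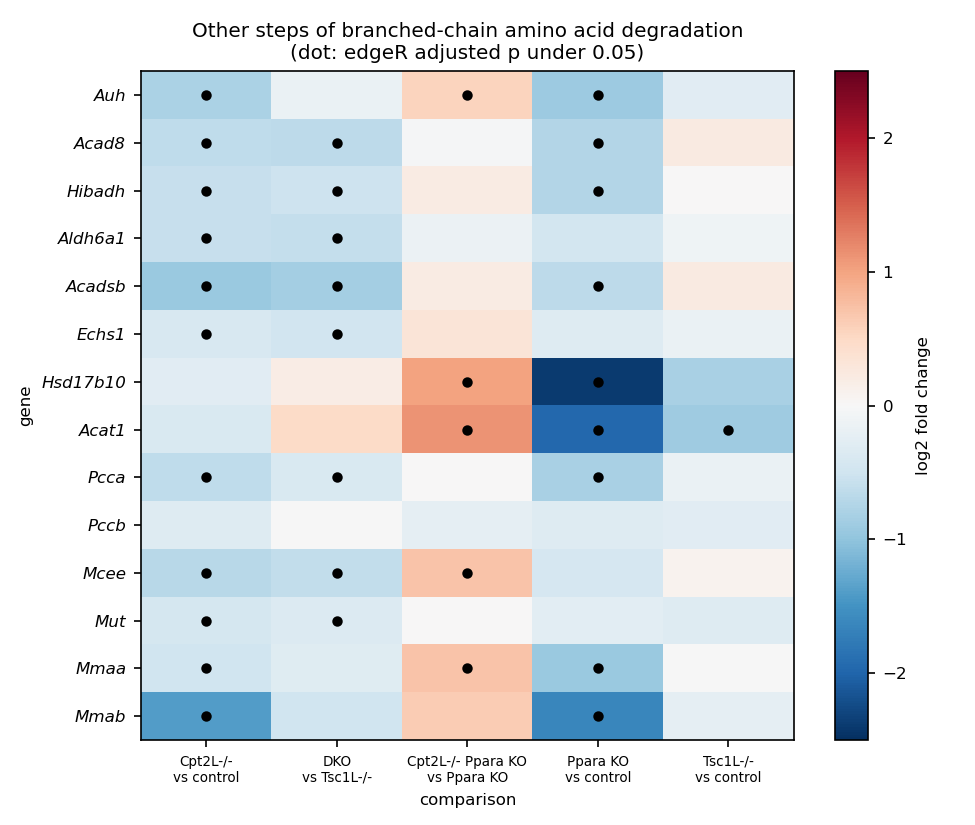
Log2 fold change (color scale) of 14 other genes of branched-chain amino acid degradation (rows) in 5 comparisons (columns). A dot marks an edgeR adjusted p under 0.05. In Cpt2L-/- against control livers 11 of 14 carry a dot, in Ppara KO against control livers 9 of 14, and both columns have their dots on the negative side.

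Of the phosphatase Ppm1k, the carriers and the transcription factor Klf15, listed with the cytosolic transaminase Bcat1 as 8 genes, 7 passed the filter on low counts, and Bcat1 did not. In Cpt2L-/- against control livers 2 of the 7 rose and 2 fell, where 16.2% of all genes rose and 14.9% fell, and the rises were Slc3a2 at 1.64 (edgeR adjusted p = 0.000164) and Slc7a5 at 1.30 (edgeR adjusted p = 0.00146), the chains of the transporter that exchanges large neutral amino acids at the cell surface. Slc3a2 was also higher in DKO livers, at 2.49 (edgeR adjusted p = 3.45e-06) against control, where 1 of the 7 rose and 4 fell, beside 19.3% and 17.1% of all genes. Slc7a5 averaged 5.46 CPM in DKO, 10.8 in Cpt2L-/- and 4.29 in control livers. In DKO against Cpt2L-/- livers Slc7a5 was at -0.96 (edgeR adjusted p = 0.0197), lost without Cpt2L-/- replicate 4 or DKO replicate 1 or 2 (edgeR adjusted p of 0.0602 to 0.0909). Its interaction of Tsc1 and Cpt2 was -1.82 (edgeR adjusted p = 0.0187), lost without DKO replicate 2 (edgeR adjusted p = 0.0503). In Ppara KO livers Slc3a2 was at 1.71 (edgeR adjusted p = 2.69e-05), and 3 of the 7 rose and 2 fell with or without the pair of libraries that stood apart, beside 15.9% and 13.2% of all genes. The 2 falls became 1 without control replicate 1, 3 or 4 or Ppara KO replicate 2 or 3 in that comparison, and without control or Cpt2L-/- replicate 2 in Cpt2L-/- livers. In Tsc1L-/- against control livers 3 of the 7 rose and none fell, beside 4.16% and 2.48% of all genes, and the count fell to 0 to 2 when each library was left out, with 0 without control replicate 1, 3 or 4. Slc43a1, another carrier of branched-chain amino acids, was at 1.07 (edgeR adjusted p = 0.0348) in Tsc1L-/- and -1.31 (edgeR adjusted p = 0.00324) in DKO livers against control, and the former call was lost without any one of the control livers and without Tsc1L-/- replicate 2 or 3 (edgeR adjusted p of 0.0536 to 0.0924). In Ppara KO livers it was at 1.83 (edgeR adjusted p = 0.00496). Its interaction of Tsc1 and Cpt2 was -1.97 (edgeR adjusted p = 0.0216), lost without DKO replicate 2 (edgeR adjusted p = 0.0575).

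The lipoyl complexes that share Dld, the pyruvate, 2-oxoglutarate and 2-oxoadipate dehydrogenases, the glycine cleavage system and lipoate synthesis, were taken as 13 genes. In Cpt2L-/- against control livers 5 of the 13 fell and 2 rose, where 14.9% of all genes fell and 16.2% rose, with Dhtkd1, the E1 of the 2-oxoadipate complex, at -1.61 (edgeR adjusted p = 4.68e-05) and Lipt2, a lipoyl transferase, at 1.09 (edgeR adjusted p = 0.00165). The 5 falls became 3 without control replicate 1 or 3 or Cpt2L-/- replicate 4, and the 2 rises became 1 without control replicate 3 or 4 or Cpt2L-/- replicate 2, 3 or 4. In DKO against Cpt2L-/- livers, where Dld rose, 5 of the 13 rose and none fell, where 10.9% of all genes rose, led by the pyruvate dehydrogenase genes Pdhb at 0.69 (edgeR adjusted p = 0.00355) and Pdhx at 0.54 (edgeR adjusted p = 0.00849), beside the cell type markers given above for Dld. In Ppara KO against control livers 2 of the 13 fell, a share near the 13.2% of all genes that fell, and 4 fell without the pair of libraries that stood apart. These 2 were Gcsh at -1.31 (edgeR adjusted p = 0.000283) and Amt at -0.93 (edgeR adjusted p = 0.023), and the call for Amt was lost without control replicate 2 or 4 or Ppara KO replicate 2 or 3 (edgeR adjusted p of 0.0626 to 0.071), so that 1 fell, while 3 fell without Ppara KO replicate 1.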

How the data were processed

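RNA was sequenced from 24 fasted mouse livers, 4 of each of 6 genotypes, and groups were taken from the sample labels. The authors deposited a table of raw counts (whole numbers for each gene) and a table of FPKM, each value of which is the count scaled by gene length and library total. The submitters' processing notes name STAR 2.5, HTSeq 0.6.1, TopHat, Bowtie 0.12.2, DESeq2, edgeR and the builds mm8 and mm9. Their roles and the strand setting of the counting are not given in the sources used here, and the gene coordinates in the table were taken as GRCm38, since 85.9% of 34490 matched genes share a start or end with a GRCm38 annotation and 24919 share both. Reads of overlapping genes could be counted for either gene. Labels do not say that replicates came from separate litters, and p-values measure the spread between these samples.

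The counts were tested with edgeR 4.0.16 (R 4.3.3), using filterByExpr (minimum count of 10, minimum total of 15), TMM scaling and the robust quasi-likelihood test, with Benjamini-Hochberg adjustment over all genes tested and a threshold of 0.05. Control, Tsc1L-/-, Cpt2L-/- and DKO libraries entered one fit of 16 libraries (13641 genes). Control, Cpt2L-/-, Ppara KO and Cpt2L-/- Ppara KO libraries entered another (13615 genes). There were 10 comparisons, 2 of them interactions. No term for batch was fitted because the labels give none. CPM were scaled by TMM over 24 libraries. Standard errors were taken from the fold change and its F statistic. Correlations used log2 CPM with a prior count of 2 and genes with a mean of at least 1 CPM.

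Depth was 14470968 to 20371204 counts per library. Replicates were compared for duplicates and none were found (chi-square per degree of freedom of 24.1 to 263 over 36 pairs). Scripts were tested on simulated data.

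The members and gene lists were chosen with earlier results of these data known. The text names all 10 members, and from each list and comparison only genes among the 2 called with the largest change, beside the genes that define a list, the targeted genes, the 5 genes nearest to the members' mean profile and up to 3 nearest to a single member. Some genes are not reported here. The transcript 0610005C13Rik was named after its values were seen.

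Alternatives were RLE size factors, no filter, DESeq2 1.42.0, limma 3.58.1 on log2(FPKM + 1) and log2(FPKM + 0.1), one fit of 24 libraries, a replicate block, fits of the 2 compared groups, each replicate left out in turn and, added after seeing the data, the pair of Ppara-null libraries that stood apart left out together, and each library left out for the gene lists. Figures were drawn with matplotlib 3.10.9.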

Additional observations from a re-analysis of the deposited data

Results flagged for a closer look

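Within a group of 4 livers, a library far from the other 3 was looked for in the 10 genes and in Tsc1, Cpt2 and Ppara, which made 78 groups, and 5 were found. Chance alone flags about 1 in 20 such groups. Mccc1 was at 59.3 CPM in Tsc1L-/- replicate 3 and at 40.8 to 43.6 CPM in the other 3 Tsc1L-/- livers. Mccc2 was at 68.5 CPM in Tsc1L-/- replicate 4 and at 79.8 to 81.4 CPM in the others. Hibch was at 77.8 CPM in Cpt2L-/- replicate 2 and at 63.5 to 64.7 CPM in the others. Cpt2 was at 126 CPM in Cpt2L-/- Ppara KO replicate 1, and at 31.7 to 39.1 CPM in the others. Ppara was at 171 CPM in DKO replicate 2 and at 257 to 272 CPM in the others.

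The effect of Cpt2 loss differed between livers with and without Ppara for 2 of the 10 genes by the edgeR interaction test, where 12% of all genes tested were called in this direction. It was 0.83 on the log2 scale for Bcat2 (adjusted p = 0.0309) and 0.94 for Hibch (adjusted p = 0.0111). Bcat2 fell after Cpt2 loss in livers with Ppara, and Hibch rose after Cpt2 loss in livers without it. Both interactions rest in part on Ppara-null groups that hold the pair of libraries that stood apart, and without that pair they were 1.001 for Bcat2 (adjusted p = 0.0107) and 0.995 for Hibch (adjusted p = 0.00434). The Bcat2 call was lost in 11 of 24 alternatives (adjusted p of up to 0.0891) and the Hibch call in none of them.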

How the results depend on the processing

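Across 27 calls of single genes and 454 alternatives, 391 kept the call, 63 lost it and 0 reversed direction, and 14 of the 27 calls were not lost under any alternative run. The number of the 10 genes called in Cpt2L-/- against control livers was 7, but 4 with limma at either pseudocount and 3 with all 24 libraries in one fit, and 4 to 7 when each replicate was left out, with 4 reached without control replicate 1. In DKO against Cpt2L-/- livers it was 1, but 2 with limma at either pseudocount and 0 with all 24 libraries in one fit (Dld, edgeR adjusted p = 0.0912). In Cpt2L-/- Ppara KO against Cpt2L-/- livers it was 3, but 1 without the filter, 1 in the fit of 2 groups and 0 to 2 when a replicate was left out, with 0 without Cpt2L-/- replicate 3 or 4. In Cpt2L-/- Ppara KO against Ppara KO livers the 1 call went to 0 in the fit of 2 groups. The interaction of Cpt2 and Ppara called 2 genes, but 1 without the filter, 1 with limma at either pseudocount and 1 to 4 when each replicate was left out, with 4 without Cpt2L-/- Ppara KO replicate 1. The cause was not tested. The log2 fold change of Mccc1 in Ppara KO against control livers, which was not called, ranged from -0.168 to 0.0612 when each replicate was left out. Between the Ppara-null groups Bckdha, close to 0 and not called, was at 0.00449 with the replicate block, 0.0929 and 0.0937 with limma, 0.0359 without the pair that stood apart and -0.180 to 0.133 when each replicate was left out. Ivd, not called, was there at 0.0475 without the pair and at -0.356 to 0.0722 when each replicate was left out.

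Libraries of different groups share replicate numbers, but same-numbered libraries did not deviate together (correlation of -0.255 to 0.223, over 0.1 in 10 of 60 pairs). With the replicate number as a block the counts of called genes were those of the fit without it, 0, 7, 5, 1, 6, 0, 2, 3, 1 and 2 over the 10 comparisons. Bckdk had the lowest CPM of the 10 genes, at 7.7 to 21.1 CPM, and it was called higher in 2 of 16 alternatives in DKO against control and in 4 of 16 in DKO against Tsc1L-/- livers.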
